A study of Rattus norvegicus with 4 samples.

Results

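The mRNAs of the 3 main fibrillar collagen genes, Col1a1 (ENSRNOG00000003897), Col1a2 (ENSRNOG00000011292) and Col3a1 (ENSRNOG00000003357), were followed in a large and a small artery of the rat. These 3 genes, of the 26313 gene identifiers listed, were chosen by identifier, and the pairing of each identifier with its symbol was given with the choice. The samples were 2 thoracic aortas (AO1 and AO2), a conduit vessel, and 2 mesenteric arterial arcades (MA1 and MA2), which hold the small resistance arteries of the gut. All came from adult male Sprague-Dawley rats aged 12 weeks, with no treatment or engineered allele named. AO1 and MA1 were taken from the same animal and AO2 and MA2 from separate animals, so 3 rats stand behind the 4 samples. The arcades were dissected without the superior mesenteric artery and cleaned of fat, a cleaning that the methods mention for the arcades only. The paper reports Ucp1 far higher in AO, and a trend to higher Acta2 and Myh11 in MA that was not significant. It judged that fat contamination did not appear to account for its metabolic genes. How tissue make-up bears on the collagen levels was not tested. RNA came from whole tissue, so every cell type of the wall is represented, and fewer cells of a type and less RNA per cell cannot be told apart.

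Fibrillar collagens are rod-shaped triple helices that line up into the fibrils that give the arterial wall its tensile strength. Type I collagen is built from alpha 1 chains, encoded by Col1a1, and an alpha 2 chain, encoded by Col1a2, while type III collagen is built from Col3a1 chains alone. Both types are deposited in the adventitia and the media. Adventitial fibroblasts are a known source, and smooth muscle cells can also make them. Loss of type III collagen leaves vessels prone to rupture in humans and mice.

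The 3 genes lie on separate chromosomes, Col1a1 on 10, Col1a2 on 4 and Col3a1 on 9 in the RefSeq annotation of GRCr8, a later build than that of the files. The gene lengths by which the deposited values had been divided were solved from the values as 16930 bp for Col1a1, 34927 bp for Col1a2 and 35923 bp for Col3a1. The spans of the same genes in RefSeq, introns included, are 17004, 34928 and 35933 bp. Among all 47357 RefSeq genes, 80 have a span as near to the first length or nearer, 1 to the second and 3 to the third, with the gene itself among them each time. The deposited values are therefore reads per kilobase of gene span rather than of mature mRNA. In RefSeq, 1 gene, Sgca, overlaps the span of Col1a1, and none overlaps Col1a2 or Col3a1. Whether counting used strand is not stated, so reads of Sgca and Col1a1 may not have been told apart.

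Of the 3 genes, only Col1a2 has an entry in the RefSeq promoter table used here. Its upstream stretch is shown as the regulatory sequence of the one member that can be shown, at chr4:33518307-33518426 of GRCr8 on the plus strand. It runs from 250 to 131 bases before the annotated start. In capitals are a TATA box (TATAAA) and a CCAAT box, here as its reverse complement ATTGG. They begin 170 and 221 bases before that start.
Col1a2 upstream: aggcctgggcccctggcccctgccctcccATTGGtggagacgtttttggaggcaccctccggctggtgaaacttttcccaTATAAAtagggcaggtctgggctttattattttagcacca
Searched on both strands, TATAAA is present in 14.2% and CCAAT in 37.5% of the 33469 promoter windows of the table. These matches describe the sequence and are not shown to be used in either artery.

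All 3 collagen mRNAs were abundant in both arteries, and their level was higher in each MA sample than in each AO sample. Scaled between samples, the fold differences were 3.73 for Col1a1, 3.28 for Col3a1 and 2.74 for Col1a2. With 2 samples per tissue and a wide gap between MA1 and MA2, none of the 3 passed the limits set for a called gene.

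Col1a1, the alpha 1 chain of type I collagen, reached 106 RPKM in MA1 and 362 RPKM in MA2, whereas AO1 had 35.6 and AO2 had 38.3. RPKM are reads per kilobase of gene, scaled to the size of the library. The mean was 37.0 ± 1.90 (SD, n = 2) in AO and 234 ± 181 (SD, n = 2) in MA. The AO samples lay within 1.08-fold of each other, whereas MA2 was 3.42-fold above MA1.

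Col1a2, the partner chain of type I collagen, was the least abundant of the 3 by RPKM, with 49.4 RPKM in MA1 and 109 RPKM in MA2, whereas AO1 had 14.2 and AO2 had 24.6. Its mean was 19.4 ± 7.34 (SD, n = 2) in AO and 79.2 ± 42.1 (SD, n = 2) in MA. Here the AO samples also differed, by 1.73-fold, and the gap between AO2 and MA1 was 2.01-fold, the narrowest of the 3 genes. These folds are of RPKM as deposited, and after scaling that gap was 1.47-fold.

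Col3a1, the sole chain of type III collagen, reached 102 RPKM in MA1 and 196 RPKM in MA2, whereas AO1 had 27.4 and AO2 had 33.1. The mean was 30.3 ± 3.97 (SD, n = 2) in AO and 149 ± 66.7 (SD, n = 2) in MA. MA1 was 3.07-fold above AO2, the widest gap between the tissues among the 3 genes, and MA2 was 1.93-fold above MA1, the smallest difference between MA samples among them. After scaling, these folds were 2.24 and 2.03.

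**Figure D1:**
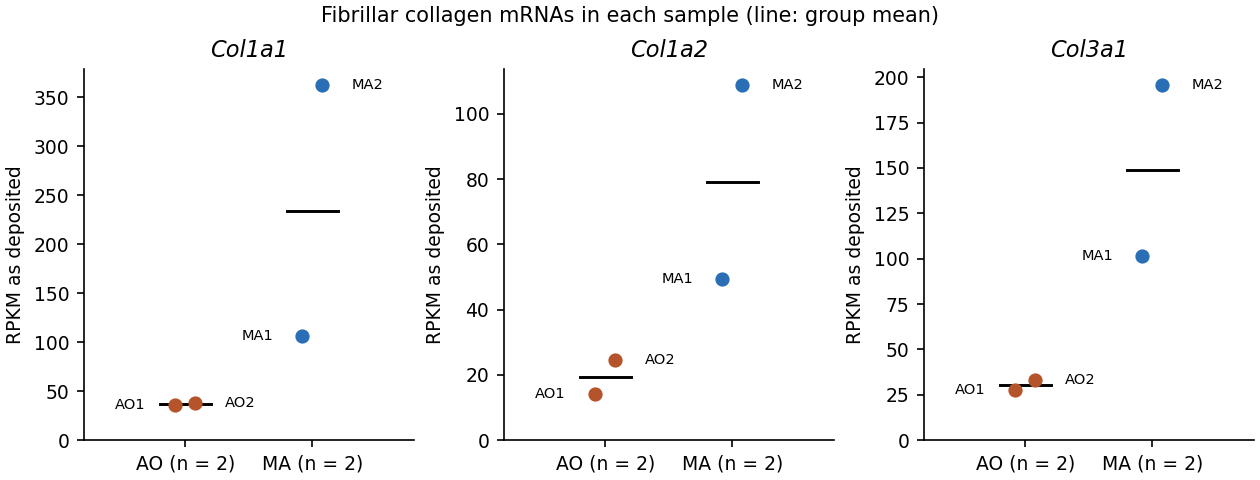
RPKM as deposited (y axis, linear from 0, a separate scale for each gene) of Col1a1, Col1a2 and Col3a1 in the 2 AO and the 2 MA samples, with a point for each sample and a line at the group mean. Both MA points lie above both AO points for each gene, and MA2 lies above MA1, from 1.93-fold for Col3a1 to 3.42-fold for Col1a1.

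Whole reads behind the RPKM values could be solved, and counting error was small beside the differences between samples. Reads on all genes ranged from 72524421 in MA1 to 82449166 in AO1. Col1a1 had 149426 reads in MA1 and 545748 reads in MA2, whereas AO1 had 54452 and AO2 had 56639. Col1a2 had between 44853 reads in AO1 and 338504 in MA2, and Col3a1 between 89035 in AO1 and 626107 in MA2. Together the 3 genes took 0.228% of the reads on genes in AO1 (exact binomial 95% interval 0.227 to 0.229%) and 0.297% in AO2 (0.295 to 0.298%). The share was 0.824% in MA1 (0.821 to 0.826%) and 2.05% in MA2 (2.05 to 2.06%). The intervals cover counting error alone, and both mates of a pair may have been counted.

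By number of reads, Col3a1 was the 24th gene in MA1 and the 8th in MA2, whereas it was the 55th in AO1 and the 51st in AO2. Ordered as AO1, AO2, MA1 and MA2, the ranks were 92, 99, 41 and 11 for Col1a1 and 114, 74, 45 and 25 for Col1a2. By RPKM the genes stood further down, at 667, 620, 318 and 206 for Col3a1 in the same order of samples. Col1a1 was at 555, 560, 312 and 135, and Col1a2 at 1047, 768, 516 and 301. By either measure, all 3 genes stood nearer the top of the list in MA, and highest in MA2.

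Before scaling, most genes had a higher RPKM in MA, with a median log2 ratio of MA to AO of 0.37 over the 7203 genes tested. The samples were therefore divided by median-of-ratios factors (AO1 0.789, AO2 0.897, MA1 1.22, MA2 1.16), after which the median was -0.05. The genes tested were those with at least 1 RPKM in at least 2 samples, and all 3 collagen genes passed this filter in every sample, with 14.2 RPKM as their lowest value. On the log2(scaled RPKM + 0.5) scale, the difference of MA from AO was 1.90 for Col1a1 (SE 0.65, adjusted p = 0.174 from limma). Its 95% interval ran from 0.14 to 3.66. For Col1a2 the difference was 1.45 (SE 0.49, adjusted p = 0.165 from limma), with an interval from 0.14 to 2.77. For Col3a1 it was 1.72 (SE 0.39, adjusted p = 0.0758 from limma), with an interval from 0.67 to 2.76. The SE of each gene is above the median SE of 0.19 over the genes tested.

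A gene was called when its adjusted p was at most 0.05, the difference was more than 2-fold and the AO mean did not lie between the MA samples. None of the 3 collagen genes was called, against 7.71% of the genes tested, or 0.93% when only genes higher in MA are counted. In the paper, collagens lead the hepatic fibrosis group among genes enriched in MA, but its text does not say which collagens. Those calls came from a negative binomial test on counts that was not repeated here, so the absence of a call here does not contradict them. Before adjustment the limma p was 0.0399 for Col1a1, 0.0369 for Col1a2 and 0.00976 for Col3a1, and 6.93% of the genes tested were higher in MA with an unadjusted p of at most 0.05. With limma-voom on the whole reads, also 0 of the 3 were called, against 623 of the 7203 genes tested, 76 of these higher in MA. With the RPKM as deposited, Col3a1 passed the limits with a log2 difference of 2.21 (adjusted p = 0.0444 from limma), and over the 11 alternatives that kept all 4 samples its adjusted p ranged from 0.0444 to 0.221. In all 3 genes both MA samples lay above both AO samples after scaling, a pattern met by 21.9% of the genes tested, or by 4.05% together with a difference of more than 2-fold.

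**Figure D2:**
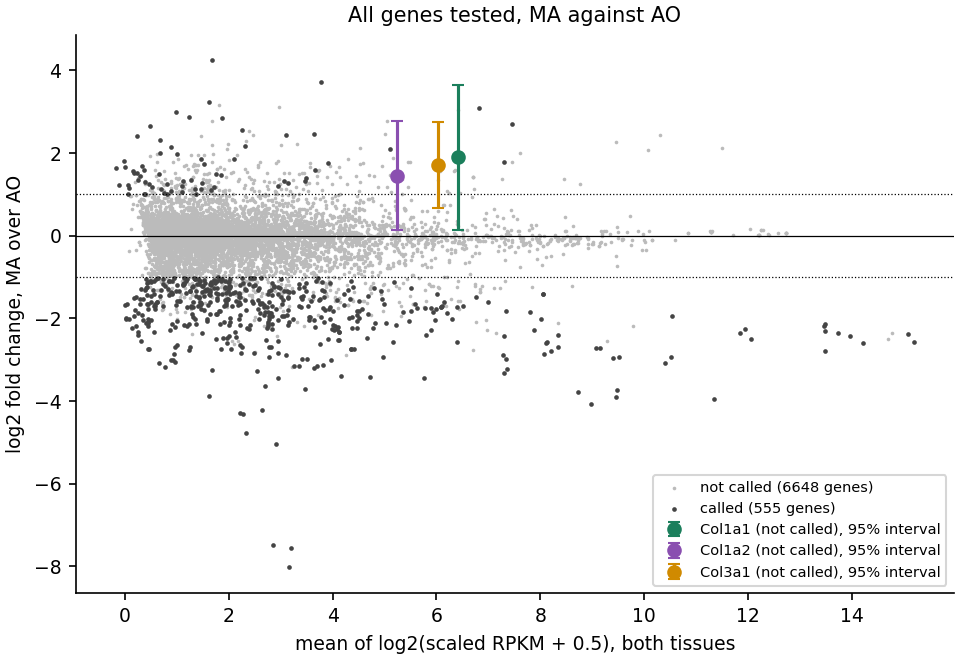
Log2 fold change of MA over AO (y axis) against the mean of log2(scaled RPKM + 0.5) of both tissues (x axis) for the 7203 genes tested, with called genes in dark grey and 2-fold limits dotted. The 3 collagen genes, with 95% intervals, lie above the upper limit at 1.45 to 1.90, and each interval reaches below it.

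Ordered by fold change from the most enriched in MA, Col1a1 was 48th, Col3a1 76th and Col1a2 133rd of the 7203 genes tested. These places depend on the setting. In the same order they were 91, 126 and 201 with a pseudocount of 0.1, and 110, 149 and 222 with limma-voom. Among the 524 genes at least as abundant as Col1a2 in mean scaled RPKM, the 3 collagen genes were 11th, 17th and 22nd in that order. That mean is 45.0 over all 4 samples, a level that Col1a2 exceeded in MA2 alone (94.1) and Col3a1 only in MA. Membership of this set thus leans on the MA values, so a high place in it is partly built in. The fold change of each gene lay within the interval of the other 2. Since the 3 genes were measured in the same 4 samples, these intervals do not measure the error of a difference between genes. The ratios within each sample, given below, compare the genes directly.

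The level in MA depended on which MA sample was taken. After scaling, Col1a1 was 3.59-fold higher in MA2 than in MA1, a larger difference than in 99.0% of the genes tested. For Col1a2 this difference was 2.31-fold, larger than in 95.9%, and for Col3a1 2.03-fold, larger than in 93.5%. Between AO1 and AO2, Col1a1 and Col3a1 differed by less than most genes, with 22.7% and 23.5% of genes showing a smaller difference, whereas Col1a2 was 1.51-fold higher in AO2, more than 86.6% of genes.

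Within the rat that gave both vessels, MA1 exceeded AO1 by 1.91-fold for Col1a1, 2.21-fold for Col1a2 and 2.37-fold for Col3a1 after scaling. In the unmatched pair of MA2 with AO2, the folds were 7.25, 3.39 and 4.54. Also unmatched, MA2 over AO1 gave 6.87, 5.11 and 4.81, and MA1 over AO2 gave 2.02, 1.47 and 2.24, in the same order of genes. Col1a1 thus had the largest of the 3 folds wherever MA2 was used, matched or not being no guide. With MA1, the smallest fold was that of Col1a1 against AO1 and that of Col1a2 against AO2. Without MA2, the log2 difference fitted by limma was 0.97 for Col1a1, a fold of 1.96, and without MA1 it was 2.81, a fold of 7.02. The corresponding folds were 1.79 without MA2 and 4.13 without MA1 for Col1a2, and 2.30 and 4.64 for Col3a1. Since both MA samples lay above both AO samples in each of the 3 genes, leaving out MA1 or MA2 could hardly turn the sign, so only the sizes inform. Of the 3 it was the Col1a1 difference that shrank most without MA2.

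**Figure D3:**
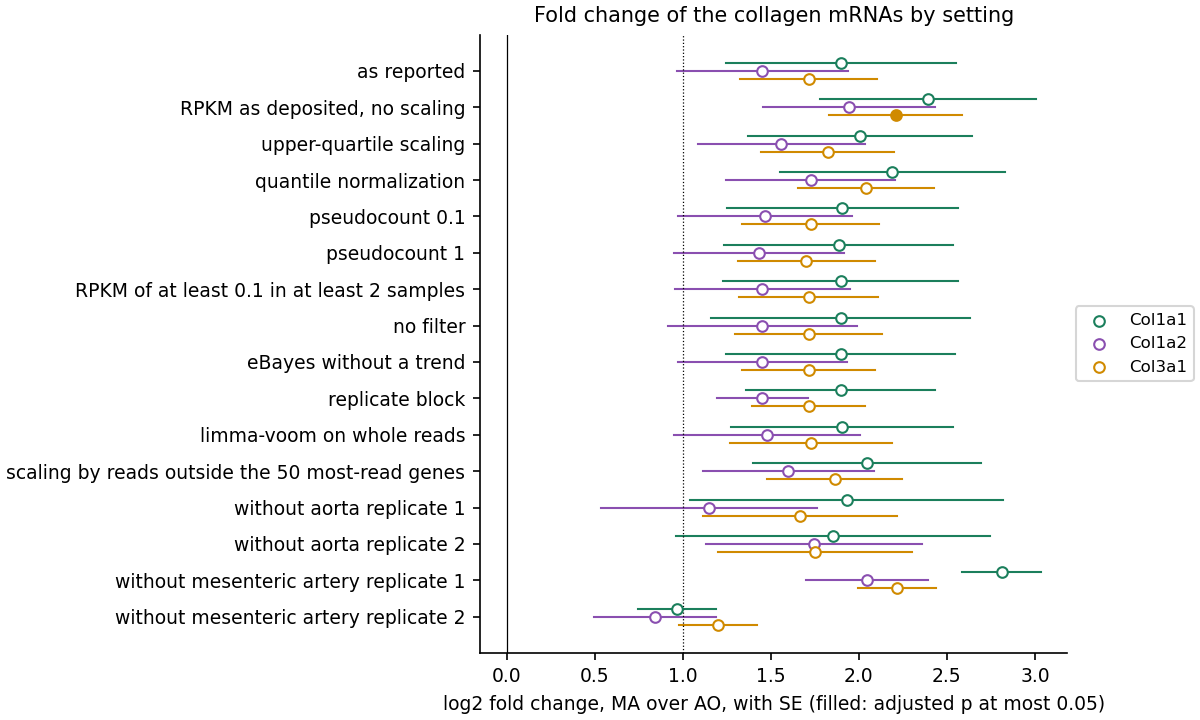
Log2 fold change of MA over AO with its SE (x axis) for Col1a1, Col1a2 and Col3a1 under each setting (rows), filled where the limma adjusted p was at most 0.05. All points lie above 0, the only filled point is Col3a1 with the RPKM as deposited, and the lowest points are those without mesenteric artery replicate 2, at 0.84 to 1.20.

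Ratios between the genes within a sample do not depend on library size or on scaling. By RPKM the order was Col1a1, then Col3a1, then Col1a2 in all 4 samples. In AO the ranges of Col1a1 (35.6 to 38.3) and Col3a1 (27.4 to 33.1) did not overlap, whereas in MA they did. Since the RPKM are per kilobase of gene span and the span of Col1a1 is 0.485 times that of Col1a2 and 0.471 times that of Col3a1, the order by reads is another one. Col3a1 had the most reads of the 3 in every sample, and Col1a1 had more reads than Col1a2 in 3 samples and fewer in AO2. Levels per kilobase of mature mRNA were not analysed here.

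The 2 chains of type I collagen stood in an RPKM ratio of Col1a1 to Col1a2 of 2.14 in MA1 and 3.33 in MA2, whereas AO1 had 2.50 and AO2 had 1.56. Ordered as AO1, AO2, MA1 and MA2, the ratio of their reads was 1.21, 0.755, 1.04 and 1.61. AO1 lay above MA1, so the tissues overlapped, and the mean log2 ratio was 0.98 ± 0.49 (SD, n = 2) in AO and 1.42 ± 0.45 (SD, n = 2) in MA. An exact permutation test of 2 samples against 2, two-sided, gave p = 0.67, and such a test cannot go below 0.33.

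Type I relative to type III collagen mRNA did not separate the tissues either. The RPKM ratio of Col1a1 to Col3a1 was 1.04 in MA1 and 1.85 in MA2, whereas AO1 had 1.30 and AO2 had 1.16, so that the MA samples lay on both sides of the AO samples. Its mean log2 was 0.29 ± 0.12 (SD, n = 2) in AO and 0.47 ± 0.58 (SD, n = 2) in MA. For Col1a2 to Col3a1 the ratio was 0.487 in MA1 and 0.556 in MA2, whereas AO1 had 0.518 and AO2 had 0.744. Here AO2 stood highest and the other 3 samples were close together. The two-sided exact permutation p was 1 for the first of these 2 ratios and 0.67 for the second. Over the 4 samples, the highest and lowest values were 2.14-fold apart for Col1a1 to Col1a2, 1.77-fold for Col1a1 to Col3a1 and 1.53-fold for Col1a2 to Col3a1. The Col1a1 levels themselves were 10.2-fold apart between AO1 and MA2 as deposited, and 6.87-fold apart after scaling.

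Of the reads on the 3 genes together, Col3a1 took 50.9% in MA1 and 41.5% in MA2, whereas AO1 had 47.3% and AO2 had 44.1%. Ordered as AO1, AO2, MA1 and MA2, Col1a1 took 28.9%, 24.1%, 25.0% and 36.1%, and Col1a2 took 23.8%, 31.9%, 24.1% and 22.4%. MA2 had the largest share of Col1a1 and the smallest of Col3a1, while MA1 was closer in its shares to AO1 than to MA2.

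**Figure D4:**
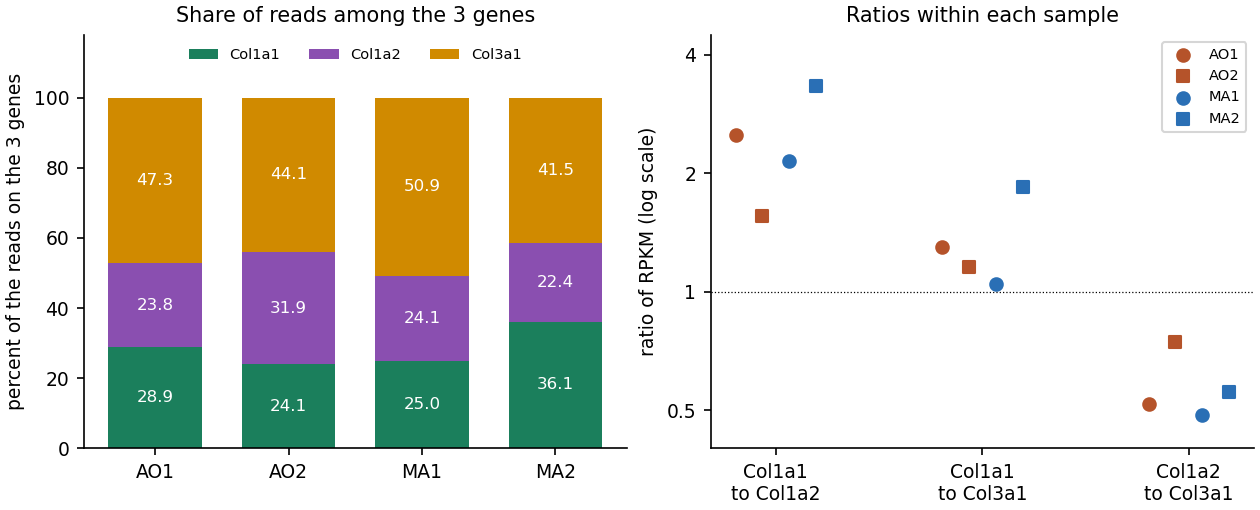
Left, percent of the reads on the 3 genes that fell on each of them, by sample. Right, RPKM ratios of each pair of genes (log axis), with AO in brown, MA in blue, circles for replicate 1 and squares for replicate 2. AO and MA points overlap for each ratio, and MA2 has the highest ratio of Col1a1 to both other genes, at 3.33 and 1.85.

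The identifiers whose pattern over the 4 samples was most like the mean of the 3 collagen genes were ENSRNOG00000001254 and ENSRNOG00000001249, at Euclidean distances of 0.030 and 0.12 between centred log2 profiles. ENSRNOG00000001254 had 23.3 RPKM in MA1 and 56.6 RPKM in MA2, whereas AO1 had 6.69 and AO2 had 8.995. ENSRNOG00000001249 had 31.2 RPKM in MA1 and 84.8 RPKM in MA2, whereas AO1 had 9.11 and AO2 had 12.2. They were picked for this likeness over the same 4 samples, so their differences between the tissues are no independent result. Col3a1 came 3rd, at 0.25, while Col1a2 was 11th, at 0.38, and Col1a1 19th, at 0.45. Each of the 3 is part of the mean that it is set against. Among the 3 it was Col1a1 that departed most from their common pattern. The files do not pair identifiers with symbols, so these genes are not named, and marker genes of cell types and the partners of collagen synthesis, folding and crosslinking were not analysed here.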

How the data were processed

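RNA from 2 AO and 2 MA samples was sequenced as paired-end libraries on a single lane. The authors aligned reads to the rat genome (Rnor5.72, Ensembl) using TopHat, dropped those aligning to over 2 places, counted the rest for each gene, normalized the counts by what the methods call mRNA length and by library size, and deposited RPKM to 7 decimals, 1 list per sample. TopHat's version is not given in the sources used here. The step that 1 read makes in each RPKM list was used to solve library sizes, lengths and whole reads (Python 3.11.15, numpy 2.4.6, numba 0.67.0). The lengths solved for the 3 genes are, however, close to gene spans with introns. All 20747 identifiers above 0 gave whole reads, a condition for accepting a solution. By the methods, the samples of a tissue came from separate animals, while AO1 and MA1 shared one.

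Values were scaled between samples by the median-of-ratios method, and log2(scaled RPKM + 0.5) was analysed. Genes with at least 1 RPKM in at least 2 samples were fitted with limma 3.58.1 in R 4.3.3 (eBayes with a trend, no block), with Benjamini-Hochberg adjustment over all of them. The limits of 0.05 and 2-fold follow the study, whose negative binomial test on counts was not repeated. The study also kept only genes with a limited ratio between MA1 and MA2, a filter that was not applied here. A fold on this scale understates the change of low genes. The fit and the solving of reads were tested on simulated data. The log2 ratios between genes within a sample were compared between the tissues by exact permutation tests. Genes named are the 3 members and the 2 identifiers nearest their mean profile. The members, lists and tests were chosen with earlier results of these data known. Of 47357 genes in the RefSeq table, 0 carry an Ensembl identifier.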

Additional observations from a re-analysis of the deposited data

How the results depend on the processing

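The log2 differences of the 3 collagen genes stayed above 0 under all 11 alternatives that kept the 4 samples, from 1.89 to 2.39 for Col1a1, 1.43 to 1.94 for Col1a2 and 1.70 to 2.21 for Col3a1. The lowest adjusted p from limma was 0.0762, 0.0576 and 0.0444 in the same order, and the highest 0.363, 0.346 and 0.221. Only Col3a1 with the RPKM as deposited passed the limits, at 2.21, and that setting also moved the median of all genes to 0.37. With each sample left out in turn, the log2 differences ranged from 0.97 to 2.81, 0.84 to 2.05 and 1.20 to 2.22. In these fits the lone sample of a tissue is assumed to vary like the other samples.

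The number of genes called was 555, 67 of them higher in MA and 488 higher in AO. With the RPKM as deposited it was 170 and 260. A filter of 0.1 RPKM gave 368 genes, and no filter gave 0 by limma, where 3434 had p values of 0.05 or less before adjustment. Leaving out a sample gave 0 to 0 genes, with 1017 to 1685 below that value before adjustment. The cause was not tested. With a replicate block by number, 563 genes were called, and the log2 differences of 1.90, 1.45 and 1.72 had adjusted p of 0.129, 0.0576 and 0.0627 from limma, so no call on the 3 genes changed. The samples share only a number apart from AO1 and MA1, and over genes the AO1 to AO2 difference had a correlation of 0.018 with the MA1 to MA2 difference. Scaling by reads outside the 50 most-read genes was added after seeing the data and changed no call on the 3 genes.

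With a pseudocount of 0.5 and with quantile normalization, the differences of MA from AO in log2 ratio (0.44, 0.18 and -0.26 for Col1a1 to Col1a2, Col1a1 to Col3a1 and Col1a2 to Col3a1) kept their sign. With each sample left out in turn, they ranged from 0.092 to 0.78, from -0.23 to 0.59 and from -0.52 to 0.0057 in the same order. The difference for Col1a1 to Col3a1 changed sign without MA2, and that for Col1a2 to Col3a1 without AO2. Ratios per kilobase of transcript or coding length were not run, since the table used here gives gene spans.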
